A study of Mus musculus with 2 samples.

Results

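Granzymes and the other genes of the cytotoxic granule were followed through the spleen as 9 genes of the 32285 in the deposited matrices, found by symbol: Gzma, Gzmb, Gzmk, Gzmm, Prf1, Nkg7, Ctsw, Srgn and Fasl. The series holds 1 wild-type library (genotype label M694I WT) and 1 M694I knock-in library of Mefv, the gene for pyrin, an inflammasome sensor. Both are splenocytes prepared by mechanical disruption and red cell lysis and sequenced with 10x Genomics 3' chemistry, which counts transcripts by unique molecular identifiers (UMIs). The titles name 1 mouse each, and no age, sex or strain is stated for them. With 1 library per genotype, genotype, mouse and library cannot be told apart, so no test between genotypes was possible and every interval below is a 95% interval for counting error only. It treats UMIs as independent and is too narrow where a few cells hold many of them, so the share held by single cells is given beside the values.

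Natural killer (NK) cells and cytotoxic T cells kill by releasing granules at the contact with a target cell. Perforin opens the target's membrane, granzymes enter and cleave proteins that lead to cell death, and the proteoglycan serglycin packs them inside the granule. Fas ligand is a separate killing signal, a membrane protein that engages the Fas receptor of the target.

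After filtering, 9501 wild-type and 8410 knock-in cells remained, with a median of 2526 and 2023 UMIs. The libraries shared 27 barcode sequences. Cells were assigned to classes by marker genes that included none of the 9 genes. The NK gate (Ncr1, Klrb1c, Klre1 and Ly49 receptors) took in 292 wild-type and 152 knock-in cells, 3.07% and 1.81% of kept cells, a share 1.70-fold lower in the knock-in library (interval 1.39 to 2.08). Among the check genes outside the gate, Tyrobp, a signalling adaptor gene, had a UMI in 99.0% and 98.7% of these cells. Eomes was found in fewer: 61.2% and 48.8% of NK cells with a Gzma UMI, and 62.5% and 48.3% of those without. The other NK check genes, Klrk1 and Klrd1, are not given here. All 6 dendritic markers were at 0, but the gate itself limits markers of other lineages, so this was no separate check. T cell, monocyte-macrophage and neutrophil markers had UMIs in the NK cells of both libraries, and B cell markers in wild-type only. Their summed levels were far below those of the NK markers. CD8 T cells were divided by Ccl5, a chemokine gene of antigen-experienced and memory-type cells, at 3 UMIs: 140 wild-type and 191 knock-in cells were Ccl5-positive and 334 and 416 Ccl5-low. Just inside the limit, 14 and 20 cells held 3 to 5 Ccl5 UMIs, and just outside it 39 and 44 held 1 or 2. Ly6c2, a memory-type gene, had a UMI in 80.7% and 80.1% of Ccl5-positive cells, and Ccr7, the lymph node homing receptor of naive cells, in 85.0% and 79.8% of Ccl5-low cells. Each is from a longer list of check genes, whose other members are not given for these classes. The gates need marker UMIs and therefore take fewer shallow cells; 6.18% and 7.31% of cells stayed ungated.

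Gzma (ENSMUSG00000023132, chr13:113093825-113100981) and Gzmk (ENSMUSG00000042385, chr13:113171608-113225908) lie on the minus strand of the same GRCm38 chromosome, 70626 bases apart. Gzmb (ENSMUSG00000015437) is at chr14:56258838-56262260, Gzmm (ENSMUSG00000054206) at chr10:79689020-79695261 and Prf1 (ENSMUSG00000037202) at chr10:61297833-61304680. Nkg7 (ENSMUSG00000004612) is at chr7:43437073-43438249, Ctsw (ENSMUSG00000024910) at chr19:5465043-5468507, Srgn (ENSMUSG00000020077) at chr10:62493833-62527451 and Fasl (ENSMUSG00000000817) at chr1:161780689-161788495. The upstream stretches of 4 genes that were all high in NK cells are shown because Runx3, a transcription factor of cytotoxic lymphocytes, is among the genes measured below. They are RefSeq sequences of GRCm38.p6, 5′ to 3′ on the gene's strand, and capitals mark TGTGGT or its reverse complement ACCACA, a Runx-type hexamer. Gzma is chr13:113100982-113101231 (minus strand), Gzmb chr14:56262335-56262584 (minus), Prf1 chr10:61297586-61297832 (plus) and Nkg7 chr7:43436888-43437072 (plus).
Gzma: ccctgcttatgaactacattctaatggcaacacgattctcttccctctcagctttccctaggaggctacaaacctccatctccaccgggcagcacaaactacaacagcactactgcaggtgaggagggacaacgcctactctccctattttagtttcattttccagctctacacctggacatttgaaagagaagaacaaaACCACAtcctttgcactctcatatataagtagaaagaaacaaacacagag
Gzmb: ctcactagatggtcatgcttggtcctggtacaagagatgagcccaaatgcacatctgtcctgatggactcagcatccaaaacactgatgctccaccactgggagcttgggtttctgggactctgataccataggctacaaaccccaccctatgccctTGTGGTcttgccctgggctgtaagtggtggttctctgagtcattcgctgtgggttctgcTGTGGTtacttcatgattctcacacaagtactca
Prf1: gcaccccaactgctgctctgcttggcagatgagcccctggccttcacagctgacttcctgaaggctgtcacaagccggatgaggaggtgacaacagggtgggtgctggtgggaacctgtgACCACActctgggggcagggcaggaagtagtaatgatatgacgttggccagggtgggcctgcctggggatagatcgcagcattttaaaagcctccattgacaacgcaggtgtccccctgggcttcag
Nkg7: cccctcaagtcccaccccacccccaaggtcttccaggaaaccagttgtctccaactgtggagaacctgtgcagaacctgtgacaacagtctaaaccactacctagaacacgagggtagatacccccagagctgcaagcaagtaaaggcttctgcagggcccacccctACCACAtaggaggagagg
Searched over the 250 bases before each RefSeq start on both strands, the hexamer occurred for 6 of the 8 genes with an entry (Gzma, Gzmb, Gzmm, Nkg7, Prf1 and Srgn) against 15.9% of 27025 genes with an entry. A T-box-type hexamer, GGTGTG or CACACC, occurred for 4 of 8 (Fasl, Gzmk, Gzmm and Nkg7) against 18.3% of genes. The stretches printed here end before the earliest annotated transcript start, and the Nkg7 T-box-type match lies in the searched window outside its printed 185 bases. A match is a description of these letters and neither a binding site nor a cause of any level.

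The genes fell into different places in the spleen, in shares that follow class size as well as level. NK cells held 71.2% of all wild-type and 69.4% of all knock-in Gzma UMIs, and 53.7% and 43.1% of Prf1. For Gzmb the NK share was 60.7% and 51.8%. Gzmk and Gzmm were mostly T cell transcripts: T cells held 70.3% and 86.7% of Gzmk UMIs (37 and 98 in all) and 56.4% and 80.5% of Gzmm (110 and 149). Nkg7, a granule membrane protein gene, was split between NK cells (49.5% and 27%) and T cells (30.2% and 50.6%). Its level in NK cells was 2017 and 2674 CPM, and NK cells were 3.07% and 1.81% of kept cells. Srgn was no marker of cytotoxic cells here, at 1651 and 1894 CPM in B cells against 1892 and 2635 CPM in NK cells. B cells held 61.2% and 58.4% of its UMIs and made up 67.5% and 65.2% of kept cells.

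**Figure D1:**
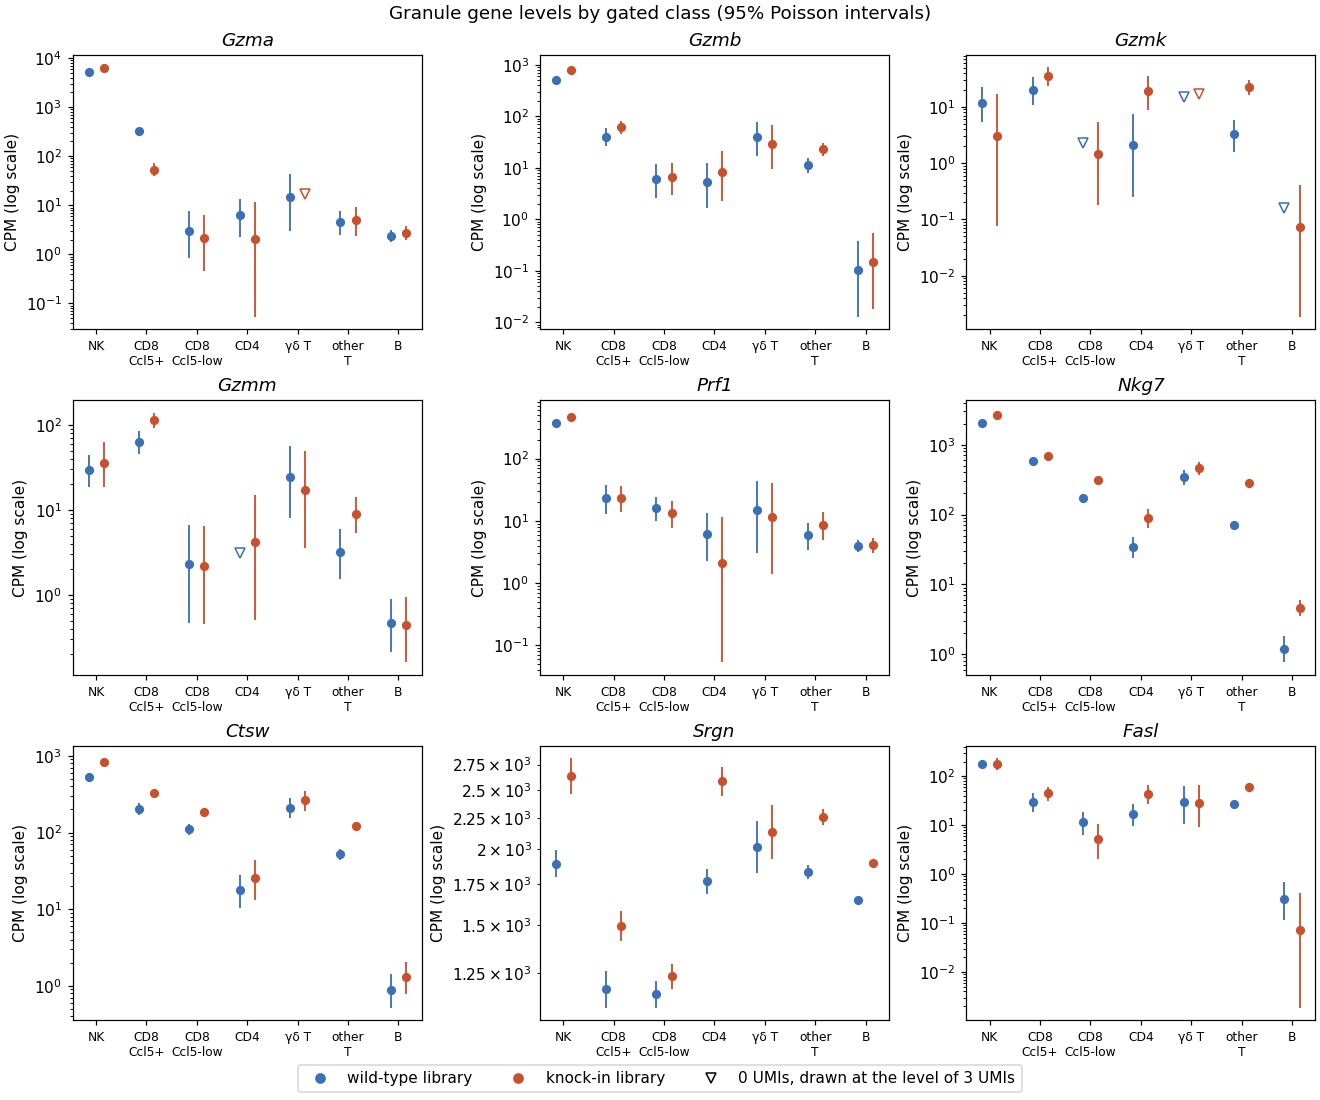
Level of each granule gene in CPM (counts per 1e6 UMIs of the class, log scale) in the gated classes, 1 point per library with its 95% Poisson interval; open triangles mark 0 UMIs, drawn at the level of 3 UMIs. Gzma in NK cells stands at 5293 CPM (wild-type) and 6176 CPM (knock-in), and Srgn is present in every class drawn.

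In NK cells, 8 of the 9 genes were measured, meaning at least 20 UMIs over both libraries and a mean of at least 10 CPM, and Gzmk was not, with 9 wild-type and 1 knock-in UMIs. Of these, 2 (Gzmb and Ctsw) were at least 1.5-fold higher in the knock-in library and 0 were lower; among all genes measured in NK cells, 8.56% were higher and 18.2% lower by that fold. The median log2 ratio of knock-in over wild-type was 0.37 for the 8 genes and -0.07 for all genes. Leaving out the highest cell of each library, 1 gene (Ctsw) was past the fold.

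Gzma, a tryptase-type granzyme, had 4096 UMIs (5293 CPM) in wild-type and 2058 UMIs (6176 CPM) in knock-in NK cells, a log2 ratio of 0.22 (0.15 to 0.30). The transcript was spread widely: the highest cell held 2.49% and 3.06% of UMIs, and 63 and 29 cells held 50% of them. While its summed level was higher in the knock-in library, fewer knock-in NK cells carried it. A Gzma UMI was found in 91.8% of wild-type and 80.9% of knock-in NK cells, and in 88.6% (84.3 to 92.0) and 77.9% (70.3 to 84.4) after thinning each cell to 1000 UMIs. The median NK cell held 11 Gzma UMIs in wild-type and 10 in knock-in spleen. In B cells, which should lack granzymes, any granzyme UMI was found in 0.546% and 0.274% of cells, against 93.2% and 82.2% of NK cells, at median depths of 2351 and 1840 UMIs in B cells and 2356 and 2053.5 in NK cells. Where NK cells were taken from unsupervised clusters (415 and 265 cells) the Gzma direction turned, to 5015 CPM (wild-type) and 4387 CPM (knock-in), a log2 ratio of -0.19. In those clusters 86.5% (82.8 to 89.6) and 67.9% (61.9 to 73.5) of cells had a Gzma UMI.

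Gzmb, the granzyme that cleaves after aspartate, had 391 UMIs (505 CPM) in wild-type and 262 UMIs (786 CPM) in knock-in NK cells, a log2 ratio of 0.64 (0.41 to 0.87). One knock-in cell held 8.78% of its UMIs, and without the highest cells the ratio was 0.57, just under the 1.5-fold limit of 0.58. It was 0.36 (0.01 to 0.70) after thinning and 0.16 (-0.03 to 0.36) with unsupervised clusters. It was found in 32.9% and 33.8% of thinned cells. Ctsw, a cathepsin-family protease of cytotoxic cells, was at 534 CPM (413 UMIs) and 822 CPM (274 UMIs), a log2 ratio of 0.62 (0.40 to 0.85), and was found in 37.4% and 55.9% of thinned cells. With clusters the Ctsw ratio was 0.48, and with equal weight per cell 0.55, both under the limit. Nkg7 was at 2017 CPM (1561 UMIs) and 2674 CPM (891 UMIs), a ratio of 0.41 (0.29 to 0.53). Srgn was at 1892 CPM (1464 UMIs) and 2635 CPM (878 UMIs), a ratio of 0.48 (0.36 to 0.60). Prf1, the pore-forming protein, was at 368 CPM (285 UMIs) and 465 CPM (155 UMIs), a ratio of 0.34 (0.05 to 0.62). These 3 genes were higher in the knock-in library by less than 1.5-fold. Fasl was level, at 181 CPM (140 UMIs) and 180 CPM (60 UMIs), with a ratio of -0.01 (-0.47 to 0.44), and Gzmm was low, at 29.7 CPM (23 UMIs) and 36.0 CPM (12 UMIs), with a ratio of 0.28 (-0.86 to 1.34).

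**Figure D2:**
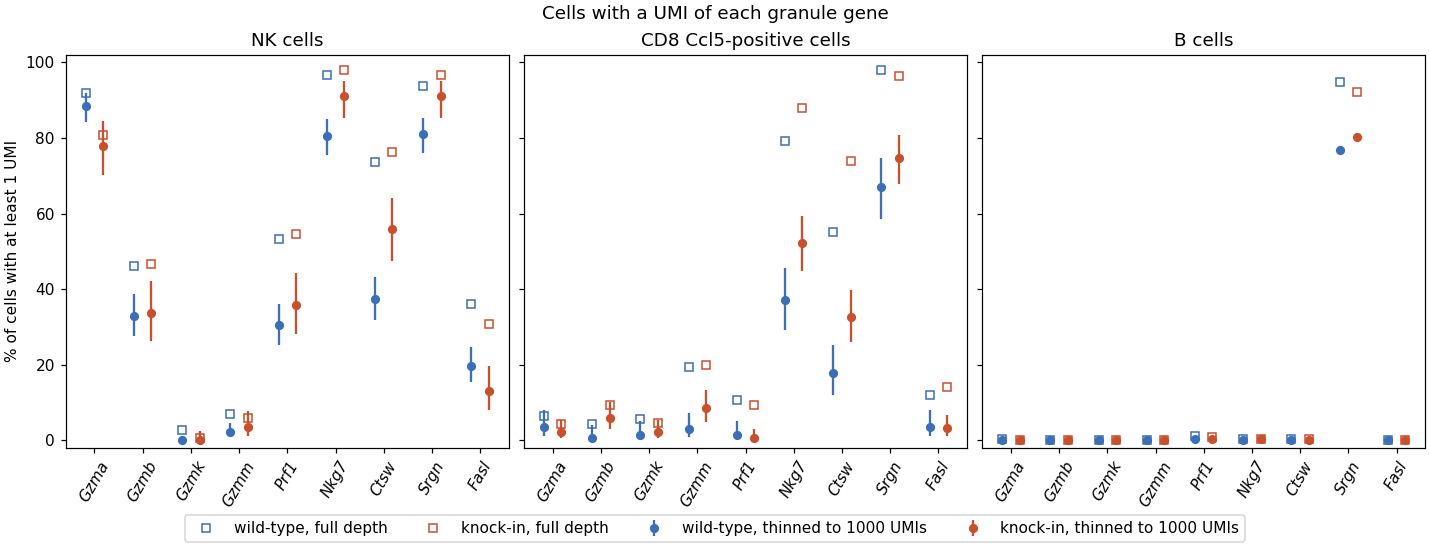
Percent of cells with at least 1 UMI of each granule gene, at full depth (open squares) and after thinning to 1000 UMIs (filled circles with 95% Clopper-Pearson intervals), by library. In NK cells Gzma is found in 88.6% of wild-type and 77.9% of knock-in thinned cells, while Ctsw is found in 37.4% and 55.9%.

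NK cells mature from a CD27-bearing to a CD11b-bearing stage, and the genes for both (Cd27 and Itgam) had UMIs in part of the gate. Cells with only a Cd27 UMI numbered 64 and 24, and cells with only an Itgam UMI 39 and 10. Most NK cells, 184 and 112, had neither. Gzma was higher in the Itgam cells of both libraries, with log2 ratios of 0.81 (0.66 to 0.96) for wild-type and 1.01 (0.75 to 1.27) for knock-in cells. One cell held 30.7% of the Gzma UMIs of the knock-in Itgam cells. Gzmb was higher there too, by 1.65 (1.05 to 2.27) and 1.86 (1.01 to 2.72) on the log2 scale. In the knock-in library 1 cell held 50% of the Gzmb UMIs of the Itgam cells and 1 cell 43.5% of those of the Cd27 cells. Prf1 was higher by 0.87 (0.28 to 1.46) and 1.23 (0.15 to 2.29). The knock-in Prf1 ratio rested on 15 UMIs in Itgam cells and 19 in Cd27 cells, of which single cells held 26.7% and 36.8%. Fasl was higher in the wild-type Itgam cells, at 1.61 (0.79 to 2.45), where 1 cell held 25.8% of its UMIs. It was not higher in the knock-in ones, at -1.23 (-4.41 to 0.89), from 2 UMIs in Itgam and 14 in Cd27 cells. Ctsw was at 0.06 (-0.46 to 0.57) and -0.93 (-2.14 to 0.11). Srgn was nearly even between the stages, at 0.08 and 0.01. Nkg7 was higher by 0.47 (0.22 to 0.72) in the wild-type library, and in the knock-in library its interval included 0 (0.14, -0.31 to 0.58).

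**Figure D3:**
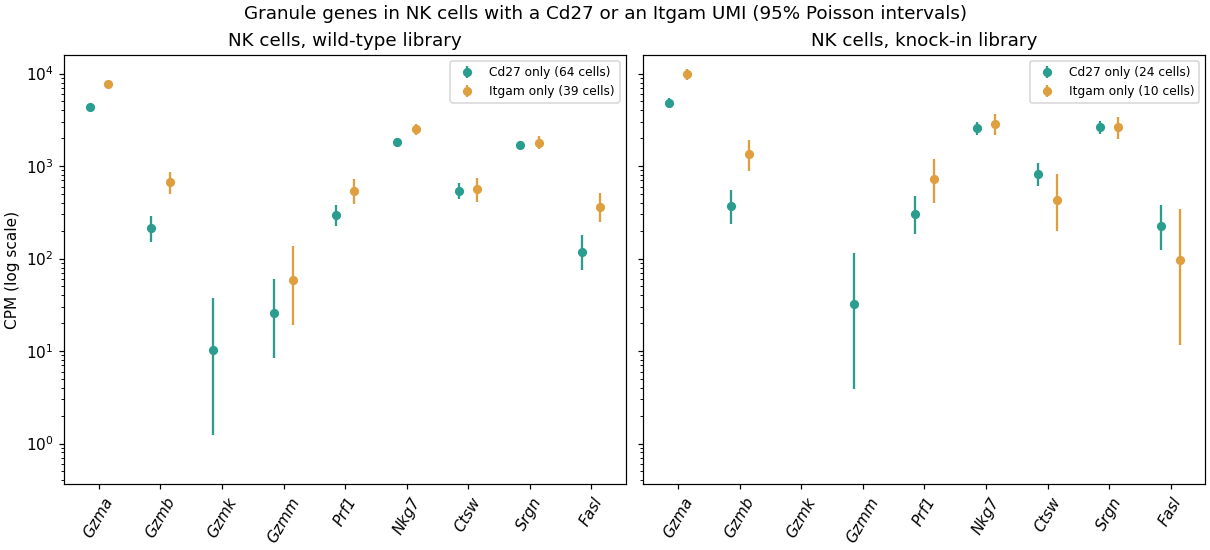
Granule gene levels in CPM (log scale) in NK cells with only a Cd27 UMI and with only an Itgam UMI, 1 panel per library, with 95% Poisson intervals; a gene at 0 UMIs has no point. Gzma and Gzmb are higher in the Itgam cells of both libraries, and Srgn is nearly even.

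Most NK cells with any of the genes also had Gzma. Of the NK cells with a Gzmb UMI, 132 of 135 wild-type (97.8%) and 70 of 71 knock-in cells (98.6%) also had a Gzma UMI. The share was 95.5% and 86.7% of those with a Prf1 UMI, and 91.8% and 80.9% of all NK cells. NK cells without a Gzma UMI numbered 24 (8.22%) and 29 (19.1%), a subset looked at after its values were seen. They were deeper than the rest, with medians of 3525 and 2779 UMIs against 2287.5 and 1916. Gzmb was at 44.1 and 64.0 CPM in them, against 567 and 1007 CPM in cells with Gzma, whereas Ctsw was at 474 and 883 CPM against 542 and 804. Il7r, the interleukin-7 receptor gene, was at 110 and 205 CPM in them, against 16.1 and 19.6 CPM. These levels rested on 10 and 16 UMIs, against 11 and 5. Il7r is from a longer list of other genes looked at in these cells. The genes Rora and Tcf7 were also higher in them in both libraries, and Itgam and Ccl5 were lower. Eomes was at 573 and 333 CPM in them, against 506 CPM in either library. Cd27 also differed in direction between the libraries, and Cxcr6 had too few UMIs to compare.

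In Ccl5-positive CD8 T cells, where any granzyme UMI was found in 7.86% (3.99 to 13.6) and 16.8% (11.8 to 22.9) of cells thinned to 1000 UMIs and in 28.6% (21.3 to 36.8) and 31.9% (25.4 to 39.1) at full depth, all 9 genes were measured: 4 were at least 1.5-fold higher in the knock-in library (Gzmb, Gzmk, Gzmm and Ctsw) and 1 lower (Gzma), where 10.8% of all genes were higher and 10.8% lower. The Gzma difference rested on 1 cell. It had 227 UMIs (325 CPM) in the wild-type and 44 UMIs (53.1 CPM) in the knock-in cells, a log2 ratio of -2.61 (-3.11 to -2.14), but 1 wild-type cell held 196 of the 227, or 86.3%. With both highest cells left out the ratio was -0.27. Over all Ccl5-positive CD8 cells, a Gzma UMI was found in 9 wild-type and 8 knock-in cells. That same wild-type cell held 19 of 28 Gzmb UMIs (67.9%), with 21 T marker UMIs and 0 NK marker UMIs.

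Gzmb was at 40.1 CPM (28 UMIs) in the wild-type and 60.4 CPM (50 UMIs) in the knock-in cells, a log2 ratio of 0.59 (-0.11 to 1.31). It was carried by few cells in either library: 1 knock-in cell held 36.0%, the ratio was 1.60 without the highest cells, and it was -0.07 without the 2 cells of over 20000 UMIs (50629 and 21313), a limit chosen after seeing the data. Gzmk, a granzyme of memory-type CD8 cells, was at 20.1 CPM (14 UMIs) and 35.0 CPM (29 UMIs), a ratio of 0.80 (-0.16 to 1.84), and 1 knock-in cell held 37.9%. The same knock-in cell, of 21313 UMIs, held the most UMIs of both genes, 18 of Gzmb and 11 of Gzmk, so their ratios are not independent. Without the highest cells the Gzmk ratio was 0.39, under the 1.5-fold limit. Neither gene's interval over all cells left out 0.

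Gzmm and Ctsw UMIs lay in more cells. Gzmm, a granzyme with a preference for cleaving after methionine, was at 63.1 CPM (44 UMIs) and 114 CPM (94 UMIs), a log2 ratio of 0.85 (0.32 to 1.40), and 0.92 without the highest cells. It was found in 2.86% and 8.42% of thinned cells, although the full-depth shares were 19.3% and 19.9%. The highest cell held 18.2% and 8.51% of Gzmm UMIs. With a mitochondrial limit of 5% the Gzmm ratio was 0.57 (-0.02 to 1.18), under the 1.5-fold limit. Ctsw was at 203 CPM (142 UMIs) and 331 CPM (274 UMIs), a ratio of 0.70 (0.40 to 1.00), in 17.9% and 32.6% of thinned cells. With unsupervised clusters the Ctsw ratio was 0.55, also under that limit. Nkg7 (582 and 690 CPM, 406 and 571 UMIs) and Srgn (1177 and 1493 CPM, 821 and 1236 UMIs) were higher by less than 1.5-fold, with ratios of 0.25 and 0.34. Prf1 was level at 22.9 CPM in both, from 16 and 19 UMIs, and Fasl (30.1 and 44.7 CPM, 21 and 37 UMIs) had a ratio of 0.57 with an interval that included 0 (-0.24 to 1.42).

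**Figure D4:**
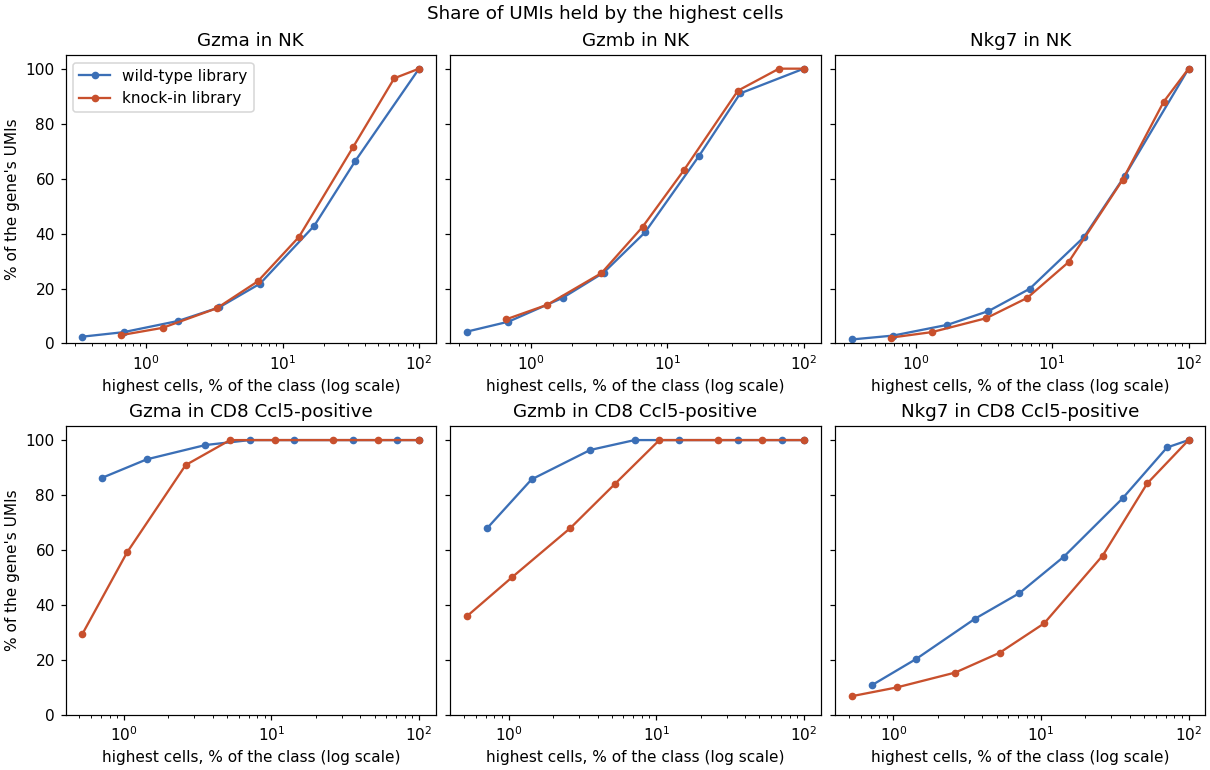
Percent of a gene's UMIs (vertical axis) held by the highest cells, given as percent of the class (horizontal, log scale), by library. In Ccl5-positive CD8 cells the single highest wild-type cell holds 86.3% of Gzma UMIs and 67.9% of Gzmb UMIs, whereas in NK cells it holds 2.49% and 4.35%.

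Granzyme transcripts were also counted together in single Ccl5-positive CD8 cells. Of 8 wild-type cells with Gzmk and 27 with Gzmm, 2 had both, and of 9 and 38 knock-in cells, 0 had both. Gzmb and Gzmk met in 5 cells of each library, out of 6 and 18 with Gzmb and 8 and 9 with Gzmk. Counts this small and the sparse sampling of each cell allow no reading of separate cell types.

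Within each library, NK cells stood above Ccl5-positive CD8 cells for most of the genes. The log2 ratio of NK over Ccl5-positive CD8 cells was 3.65 and 3.70 for Gzmb, 4.01 and 4.34 for Prf1, 1.79 and 1.95 for Nkg7 and 1.39 and 1.31 for Ctsw in the wild-type and knock-in libraries. Gzmm ran the other way, at -1.09 (-1.88 to -0.33) and -1.66 (-2.66 to -0.78). So did Gzmk, at -0.79 (-2.18 to 0.52), an interval that included 0, and -3.54 (-8.90 to -0.95). Ccl5-positive over Ccl5-low CD8 cells gave 4.78 and 5.69 for Gzmm and 1.77 and 1.17 for Nkg7, and 0.03 and 0.27 for Srgn, the gene with the smallest step.

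Ccl5-low CD8 T cells were nearly without granzyme: any granzyme UMI was found in 3.59% and 3.85% of cells, and in 0.300% and 1.69% after thinning. The 4 measured genes were Nkg7, Ctsw, Srgn and Prf1, of which 2 were at least 1.5-fold higher in the knock-in library and 0 lower, where 10.3% of all genes were higher and 8.69% lower. Nkg7 was at 170 CPM (223 UMIs) and 307 CPM (418 UMIs), a log2 ratio of 0.85 (0.61 to 1.09), and was found in 15% and 23.6% of thinned cells. Ctsw was at 111 CPM (146 UMIs) and 185 CPM (252 UMIs), a ratio of 0.73 (0.43 to 1.04). Srgn differed little (1155 and 1237 CPM, ratio 0.10), and Prf1 was low (16.0 and 13.2 CPM, ratio -0.28, -1.27 to 0.70).

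T cells with neither Cd4, Cd8 nor Trdc detected, or with both coreceptors (996 and 849 cells), formed the largest T cell class. Of 6 measured genes, 5 were at least 1.5-fold higher and 0 lower, where 10.4% of all genes were higher and 4.64% lower. Nkg7 was at 71.4 CPM (221 UMIs) in the wild-type and 282 CPM (561 UMIs) in the knock-in cells, a log2 ratio of 1.98 (1.75 to 2.21), with 10.0% and 26.0% of cells positive. Gzmk was at 3.23 CPM (10 UMIs in 8 cells) and 22.6 CPM (45 UMIs in 27 cells), a ratio of 2.81 (1.80 to 3.96). Fasl was at 26.8 and 59.2 CPM (1.14, 0.73 to 1.57), Gzmb at 11.3 and 23.1 CPM (1.03, 0.36 to 1.71) and Ctsw at 52.0 and 120 CPM (1.21). One wild-type cell held 37.1% of the Gzmb UMIs, and the Gzmb ratio was 1.46 with both highest cells left out, while single cells held 4.07% and 2.32% of Nkg7. The Gzmb ratio was 0.49 with equal weight per cell and the Fasl ratio 0.57 (-0.10 to 1.25) after thinning, both under the 1.5-fold limit. Ccr7 and Lef1, genes of naive T cells, were found in a smaller share of knock-in cells at full depth. Ccr7 had a UMI in 70.8% and 52.9% of these cells and Lef1 in 62.0% and 45.3%. Median depth was 2861.5 and 2163.0 UMIs and these shares were not thinned. The part of these genes in the result was not tested. Cells with at least 3 Ccl5 UMIs made up 10.9% of this class in wild-type and 20.3% in knock-in spleen, a division added after seeing the data. Nkg7 was higher in the knock-in library on both sides of it, by 1.08 (0.81 to 1.35) with Ccl5 and 2.10 (1.66 to 2.56) without, on the log2 scale. For Gzmb the ratio was 1.48 (0.43 to 2.66) with Ccl5 and -0.22 (-1.35 to 0.82) without. The side without Ccl5 held 25 wild-type UMIs in 8 cells and 12 knock-in UMIs in 5 cells. The wild-type cell with 13 Gzmb UMIs lay on that side, so the ratio there leaned on 1 cell.

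In CD4 T cells, 4 genes were measured, 2 of them (Nkg7 and Fasl) at least 1.5-fold higher and 0 lower, where 13.8% of all genes were higher and 11.1% lower. Nkg7 rested on 33 and 42 UMIs (34.2 and 88.3 CPM, ratio 1.37, 0.68 to 2.07), and 1 wild-type cell held 57.6%. Without the highest cells the Nkg7 ratio was 2.16 (1.21 to 3.18). Cells with at least 3 Ccl5 UMIs, 5 wild-type (2.08%) and 13 knock-in (7.93%), held 60.6% and 64.3% of the Nkg7 UMIs. Fasl rested on 16 and 21 UMIs (16.6 and 44.2 CPM, ratio 1.41, 0.40 to 2.45). In gamma-delta T cells 3 genes were measured and 0 were past the fold in either direction, where 14.0% of all genes were higher and 17.0% lower. In B cells only Srgn was measured (1651 and 1894 CPM), and 0 genes were past the fold, where 3.26% of all genes were higher and 3.05% lower.

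**Figure D5:**
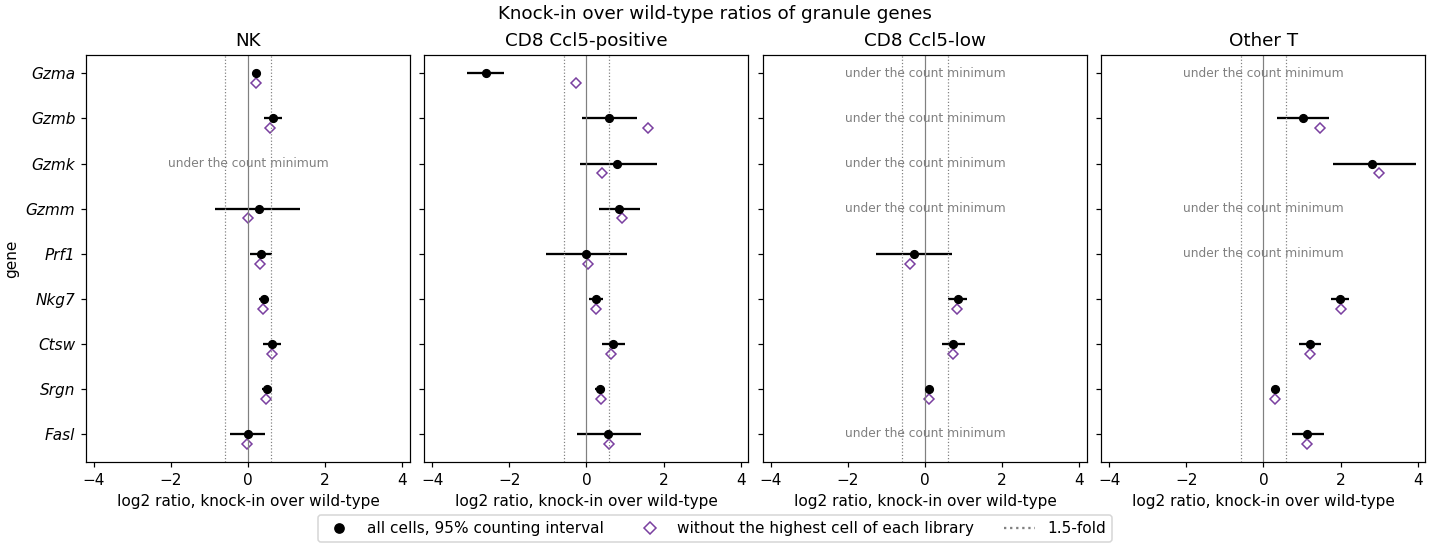
Log2 ratio of knock-in over wild-type for each granule gene, 1 panel per class; circles are all cells with 95% counting intervals and diamonds are without the highest cell of each library. Gzma in Ccl5-positive CD8 cells moves from -2.61 to -0.27 without the highest cells.

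Over all kept cells, class sizes and levels both enter. Gzma was at 191 CPM (5751 UMIs, wild-type) and 124 CPM (2964 UMIs, knock-in), a log2 ratio of -0.62 (-0.69 to -0.56), opposite to its ratio of 0.22 within gated NK cells, whose share was lower in the knock-in library. Ctsw was higher by 0.59 (0.48 to 0.70) on the log2 scale. These were the 2 genes past 1.5-fold of 7 measured, where 3.11% of all genes were higher and 3.99% lower.

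Of a list of 26 other genes of the killing pathway (granule release, receptors and transcription factors), 15 were measured in NK cells, 1 higher and 2 lower, with a median of -0.14, and 13 in Ccl5-positive CD8 cells, 1 higher and 2 lower, with a median of 0.00. Among all genes measured, 8.56% were higher and 18.2% lower in NK cells, and 10.8% and 10.8% in Ccl5-positive CD8 cells. Runx3 was lower in both: in NK cells it was at 578 and 375 CPM (447 and 125 UMIs), a log2 ratio of -0.62 (-0.92 to -0.33), and in Ccl5-positive CD8 cells at 307 and 188 CPM (214 and 156 UMIs), a ratio of -0.70 (-1.01 to -0.40). The highest cell held 2.68% and 5.60% of Runx3 UMIs in NK cells, and 16.4% and 4.49% in Ccl5-positive CD8 cells. Stxbp2, a protein of granule fusion, had 28 wild-type and 1 knock-in UMIs in NK cells, a ratio of -3.59 (-8.95 to -1), and Fas, the receptor of Fas ligand, 7 and 14 (2.22, 0.81 to 3.77). In Ccl5-positive CD8 cells Ifng, the interferon gamma gene, had 18 and 6 UMIs (-1.83, -3.45 to -0.44), and Tbx21, the gene for T-bet, 6 and 23 (1.69, 0.35 to 3.28). The highest cell held 22.2% and 16.7% of Ifng UMIs and 16.7% and 8.70% of Tbx21 UMIs. Ratios of these pathway genes without the highest cells were not taken.

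Across 12 classes in 2 libraries (24 points, which share libraries and depth), the levels most like each gene's were sought among 5351 genes by Pearson r on log2(CPM + 10), as a description. Outside the 9 genes themselves, Gzmb ran closest to Serpinb9 (r = 0.975), which encodes a granzyme B inhibitor, Nkg7 to Eomes (0.959) and Gzma to Klrb1b (0.923). Gzmm stood with Yes1 (0.921) and Gzmk with Cxcr3 (0.741), a lower likeness than for the other genes. Among the 9 genes, Gzmb and Prf1 (0.960) and Nkg7 and Ctsw (0.960) were the closest pairs.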

How the data were processed

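Single-cell libraries of splenocytes from 1 wild-type and 1 knock-in mouse were analysed. Values are unnormalized UMI counts for each gene and barcode, as the authors deposited them. Per the file headers, Cell Ranger 6.1.2 wrote them, whereas version 7.1.0 is listed, beside Seurat 5.0.3 and mm10, per the submitters' processing notes. They held 10449 and 9000 barcodes with 32797052 and 25193274 UMIs. Cells with at least 500 UMIs, 200 genes and under 10% mitochondrial UMIs were kept, and Scrublet doublets (scanpy 1.11.5, expected rate 0.08; 232 and 173 cells) were removed. A cell took the lineage with the highest marker sum, at least 2 UMIs and 75% of lineage UMIs.

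UMIs were summed per class and library and scaled to CPM. Intervals are exact: Poisson for levels, Clopper-Pearson for shares, conditional binomial for ratios. Scaling by TMM used edgeR 4.0.16, without its tests. Clusters came from leidenalg 0.10.2 (resolution 1, 2000 variable genes, 30 components, 15 neighbours, the 9 genes left out). The sums and ratios were tested on simulated data. All 9 genes are named; of the 26 pathway genes, the up to 6 largest past 1.5-fold with an interval leaving out 0; and of the most alike genes, some of the 2 found per gene. The genes and lists were chosen with earlier results of these data known. Gene positions came from GENCODE.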

Additional observations from a re-analysis of the deposited data

Results flagged for a closer look

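The log2 ratios of Gzma differed in sign between classes, and the difference was not tested. The log2 ratio of knock-in over wild-type was -2.61 in Ccl5-positive CD8 T cells and 3.55 in monocyte-macrophage cells. The former rested on 1 wild-type cell with 86.3% of 227 UMIs, and it was -0.27 with both highest cells left out. The latter rested on 3 wild-type and 27 knock-in UMIs, of which 1 knock-in cell held 25 (92.6%), and it was 0.39 with both highest cells left out. In cells with both T and NK markers (31 and 26 cells), Gzma was at 1063 CPM (130 UMIs) and 626 CPM (59 UMIs), a log2 ratio of -0.76, against the same 3.55.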

How the results depend on the processing

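No paired analysis was possible because each genotype has 1 library. Of 315 log2 ratios of the 9 genes under alternatives, 290 lay inside the interval of the reported ratio and 25 outside it. The sign changed in 16 of them, 13 inside the interval and 3 outside it. The alternatives include the setting without cells of over 20000 UMIs, which was chosen after seeing the data. The sign of a ratio that was past 1.5-fold or had an interval leaving out 0 turned for Gzma with unsupervised clusters, from 0.22 to -0.19 in NK cells and from -2.61 to 0.11 in Ccl5-positive CD8 cells, and for Gzmb in Ccl5-positive CD8 cells, from 0.59 to -0.07 without cells of over 20000 UMIs. The cluster taken for Ccl5-positive CD8 cells (278 wild-type and 396 knock-in cells) was mixed, with CD8 cells making up 52.3% of its gated cells. Srgn in Ccl5-low CD8 cells went from 0.10 to -0.11 after thinning, beyond its interval. The causes were not tested. Clusters also moved the log2 ratio of NK shares from -0.77 to -0.47. In NK cells the 2 higher genes became 1 with a 5% mitochondrial limit, with at least 1000 UMIs and 500 genes, after thinning, without the highest cells and with equal weight per cell, and 0 with clusters; the 0 lower became 1 with no filter on low counts. In Ccl5-positive CD8 cells the 4 higher became 2 after thinning and 2 without cells of over 20000 UMIs, 3 with the 5% mitochondrial limit, with TMM factors and with totals that left out immunoglobulin, mitochondrial and ribosomal genes, and 5 with clusters, and the 1 lower became 0 after thinning, with clusters and without the highest cells. In Ccl5-low CD8 cells the 2 higher became 1 with clusters, and the 0 lower became 2 with clusters, 1 with the same reduced totals and 1 with no filter.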

Other observations

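Ungated cells held 21.0% of wild-type and 24.4% of knock-in Gzma UMIs. Of these, 96.9% and 98.3% lay in the unsupervised NK clusters, in 107 wild-type and 87 knock-in ungated cells at 4963 and 3309 CPM, against 5310 and 6223 CPM in the gated cells of the same clusters. Srgn in neutrophils had 7369 CPM (wild-type) and 3222 CPM (knock-in), a log2 ratio of -1.19 (-1.35 to -1.04), where the median of all genes measured in neutrophils was -0.54.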
